A study of Mus musculus with 2 samples.

Results

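Cholesterol and fatty acid synthesis genes were compared in the striatum of Cx30 KO and WT mice on day 1 after MPTP. Connexin 30 (Cx30), encoded by Gjb6, is a gap junction protein of astrocytes, and MPTP is a toxin that damages dopamine neurons of the nigrostriatal pathway. The genes were taken from a list of 27 symbols, and a probe was used when its gene name on the array was exactly one of them. Of these, 26 genes with 51 probes were found among 37074 gene names, and no probe was named Acat2. The list holds 6 measured genes of the mevalonate pathway, 10 that turn farnesyl units into cholesterol, 5 that regulate the pathway (4 genes) or carry sterols (1 gene), and 5 genes of fatty acid synthesis.

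Each genotype was represented by 1 single-colour Agilent array, hybridised with striatal RNA pooled from 2 male mice. All mice were 8 weeks old and received MPTP, injected 4 times at 20 mg/kg with 2 h between injections. The labels give the strain as C57BL/6J for WT and as Cx30-LacZ for Cx30 KO, a germline knockout line named for its LacZ reporter, while the methods describe the WT controls as offspring of heterozygous parents that lack the mutation. Strain and genotype cannot be told apart on these arrays. NS-treated (saline) mice were not analysed here, so every value is a difference between the genotypes after MPTP and not a response to MPTP. With 1 array per genotype there was no error between mice and no test, and each ± below is the scanner software's own error for a spot.

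Cells make cholesterol from acetyl-CoA through mevalonate, farnesyl units, squalene and lanosterol, and they make fatty acids with acetyl-CoA carboxylase and fatty acid synthase, followed by elongases and desaturases. Both branches are driven by the SREBP transcription factors, which are held in the endoplasmic reticulum by the INSIG proteins when sterols are plentiful. In the brain nearly all cholesterol is made locally. Oligodendrocytes use it for myelin in large amounts, and astrocytes make it for their own membranes and for export to neurons.

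SREBPs bind sterol regulatory elements (SRE) and E-boxes, usually beside CCAAT boxes that bind NF-Y. RefSeq promoters of GRCm38.p6, from 250 bases before to 50 bases after the transcription start, were at hand for 21 of the 27 genes. A CCAAT box (CCAAT on either strand) was present in 18 of these 21 genes (85.7%), against 41.1% of all 27025 genes with a promoter in the table. The SRE core TCACNCCAC, on either strand, was found in the Hmgcs1 promoter only, which is 4.76% of the 21 genes against 1.44% of all genes. The E-box CACGTG was found in 4 of the 21 genes (19.0%, against 8.09%), namely Insig1, Hsd17b7, Sc5d and 1 of the starts of Dhcr7. The GC box GGGCGG, on either strand, was found in 17 of them (81.0%), against 38.2% of all genes and 62.1% of the detected genes with a promoter in the table. The shares of these detected genes were 42.1% for the CCAAT box, 1.45% for the SRE core and 10.8% for the E-box. Each motif was counted on its own, also where matches share bases. A match is only a description, and letters missing from these windows tell nothing of binding elsewhere. Among the 20 measured genes with a promoter, the median log2 ratio (Cx30 KO over WT) came to −0.09 for the 18 with a CCAAT box and to −0.25 for the other 2, Elovl6 and Acaca. For the other motifs the value was lower in the genes with a match, by little for the GC box. Each of these contrasts, that of the CCAAT box included, has few genes on 1 side, and none was tested. The median was −0.23 for the 4 genes with an E-box and −0.09 for the 16 without. It was −0.11 for the 16 with a GC box and −0.08 for the 4 without. Hmgcs1, with the SRE core, had −0.32, and the 19 without it had a median of −0.11.

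The 250 bases before the start are shown for 4 genes, Hmgcs1 for its SRE core, Insig1 for its E-box, and Idi1 and Tm7sf2 for the largest negative log2 ratios among sterol genes with a promoter at hand, with capitals for an SRE core, an E-box or a CCAAT box in either orientation. Hmgcs1 lies at chr13:119690101-119690350 on the plus strand, Idi1 at chr13:8885356-8885605 on the plus strand, Tm7sf2 at chr19:6067851-6068100 on the minus strand and Insig1 at chr5:28071162-28071411 on the plus strand, and each sequence is written 5′ to 3′ in the direction of transcription.
Hmgcs1: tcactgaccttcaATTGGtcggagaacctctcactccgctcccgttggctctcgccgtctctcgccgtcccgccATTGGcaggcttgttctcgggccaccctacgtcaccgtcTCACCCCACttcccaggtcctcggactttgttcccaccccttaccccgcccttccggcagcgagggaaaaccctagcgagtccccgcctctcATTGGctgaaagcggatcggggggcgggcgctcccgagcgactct
Idi1: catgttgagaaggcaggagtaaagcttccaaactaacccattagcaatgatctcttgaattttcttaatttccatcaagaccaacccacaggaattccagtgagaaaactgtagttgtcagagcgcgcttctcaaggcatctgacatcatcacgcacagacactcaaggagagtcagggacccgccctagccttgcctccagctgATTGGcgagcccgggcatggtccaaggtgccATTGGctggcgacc
Tm7sf2: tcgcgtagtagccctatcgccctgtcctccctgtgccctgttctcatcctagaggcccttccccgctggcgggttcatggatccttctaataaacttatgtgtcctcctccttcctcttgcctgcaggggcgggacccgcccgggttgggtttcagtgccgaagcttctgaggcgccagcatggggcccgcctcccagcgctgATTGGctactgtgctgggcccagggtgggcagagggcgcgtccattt
Insig1: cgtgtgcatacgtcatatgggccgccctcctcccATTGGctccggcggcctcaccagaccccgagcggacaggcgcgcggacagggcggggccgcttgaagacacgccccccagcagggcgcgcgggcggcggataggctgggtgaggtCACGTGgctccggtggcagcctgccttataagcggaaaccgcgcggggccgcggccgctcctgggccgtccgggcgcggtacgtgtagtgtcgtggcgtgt
The SRE core of Hmgcs1 begins 137 bases before the start and lies between CCAAT boxes that begin at 237, 176 and 45 bases before it. A CCAAT box begins 45 bases before the start in Idi1, which has another at 14, and 47 bases before it in Tm7sf2. The E-box of Insig1 begins 101 bases and its CCAAT box 216 bases before the start. These letters are shown beside the signals of the same genes, and no relation between them and the array values was tested.

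On the arrays, 56.6% of the 56605 probes (32019) stood well above background for WT, and 58.2% (32961) for Cx30 KO. Signals were scaled to the 75th percentile of each array (401.2 (WT) and 381.8 (Cx30 KO)), and a log2 ratio is Cx30 KO minus WT after this scaling. Each gene was read from its brightest probe. In all, 22043 genes were detected, with a median log2 ratio of 0.03 and 45.4% of the ratios below 0. The brightest probe for Gjb6 gave 1788 ± 179 (WT) and 111 ± 11.6 (Cx30 KO), a log2 ratio of −3.94, in the direction the labels give.

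The study's criteria ask for a ratio of at least 1.5 with a Z-score of at least 2.0, or a ratio of at most 0.66 with a Z-score of at most −2.0. The methods give no set of probes for the Z-score, and the choice made here was to place a log2 ratio among those of the 1000 probes nearest to it in mean signal. With this choice the criteria called 3.38% of the detected genes lower in Cx30 KO and 2.37% higher. The ratio limits alone called 6.22% lower and 7.24% higher.

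All 26 genes were well above background on both arrays. Of these, 20 had a log2 ratio below 0, with a median of −0.11. The criteria for a lower signal were met by 1 gene, Scd1, which is 3.85% of the 26 and close to the 3.38% of all genes. This call was lost, leaving 0 genes, with Z-scores over all probes and with ratio limits of 2 and 0.5. No gene (0 of 26) met the criteria for a higher signal, against 2.37% of all genes. By the ratio alone, at the brightest probes, Scd1 was again the single lower gene, against 6.22% of all genes. None (0) was higher, against 7.24%. Other probes well above background on both arrays passed a ratio limit but not the Z-score limit. These were the second probe of Sc5d (ratio 0.649) and dim probes of Acaca (1.51 and 1.65). Most of the pathway thus shifted by little, and the shift was mostly towards lower signals in Cx30 KO. Because whole tissue was measured, fewer cells of a type and less RNA per cell cannot be told apart.

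The scanner's error of a log2 ratio was 0.20 to 0.21 for each of these genes, in effect a fixed limit. The log2 ratio was below 0 by more than this error for 10 of the 26 genes (38.5%), against 20.4% of all detected genes. It was above 0 by more than the error for 1 gene, Lss (3.85%, against 23.6%). Differences of more than 2 times the error were seen for Scd1, Tm7sf2, Idi1, Sqle and Scd2 on the lower side (19.2%, against 8.25% of all genes) and for Lss on the higher side (3.85%, against 7.79%). The scanner error leaves out differences between mice, and it lies below the SD between probes of a gene, 0.26 over all genes.

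**Figure D1:**
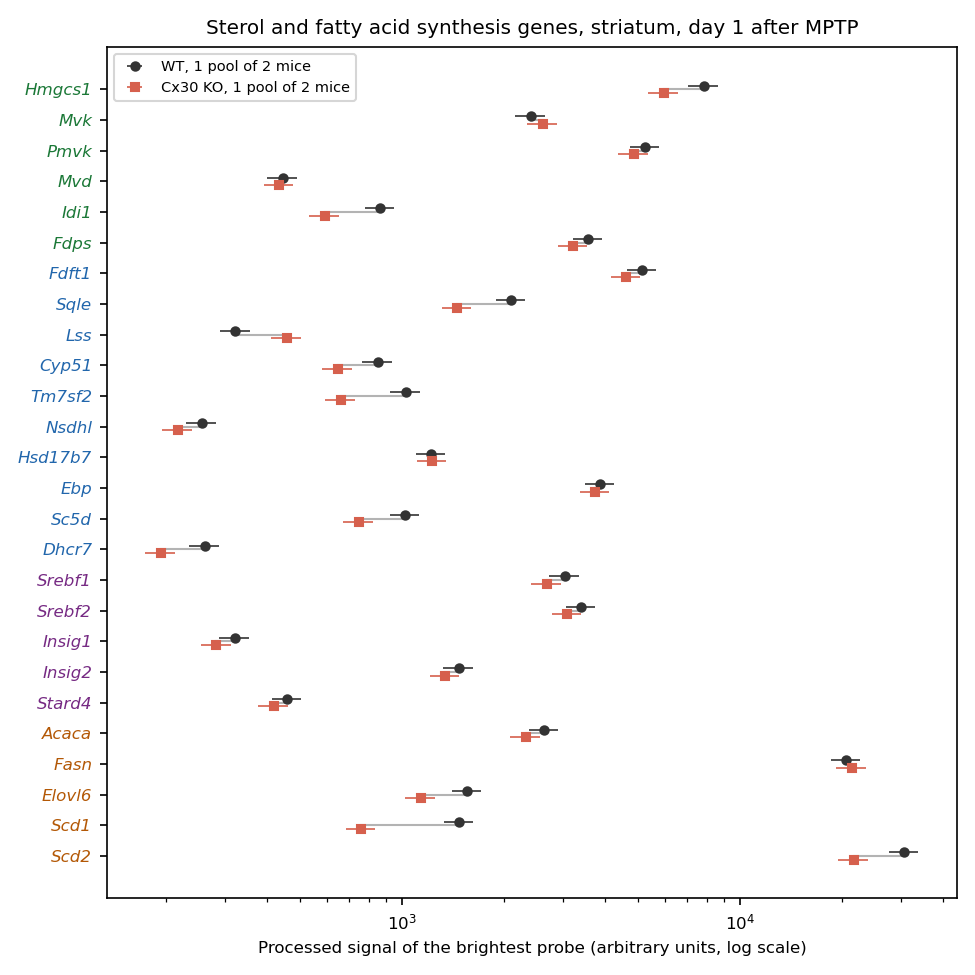
Processed signal of the brightest probe of each of the 26 genes (arbitrary units, log scale), in WT (black circles) and Cx30 KO (red squares), with the scanner software's error as horizontal bars and 1 pool of 2 mice per point. Gene names are coloured by step of the pathway, and the widest gap is that of Scd1, from 1478 in WT to 759 in Cx30 KO, before the arrays were scaled.

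The mevalonate pathway builds farnesyl diphosphate from acetyl-CoA. Its 6 measured genes had a median log2 ratio of −0.06, with 4 of 6 below 0 and none (0) past the criteria. The signals on the 2 arrays were close for most steps, and only Idi1 and Hmgcs1 were lower in Cx30 KO by more than the scanner error.

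Hmgcs1, the HMG-CoA synthase that feeds the pathway, had a signal of 7819 ± 782 (WT) and 5954 ± 595 (Cx30 KO), a log2 ratio of −0.32. Idi1, the isomerase that provides both isoprenoid building blocks, had 863 ± 86.4 (WT) and 590 ± 59.2 (Cx30 KO), a log2 ratio of −0.48 and a Z-score of −1.62. Idi1 was thus 28.1% lower and Hmgcs1 19.98% lower after scaling, and neither reached the limit of 0.66. The kinases and the decarboxylase between them did not share this difference. Mvk, mevalonate kinase, had 2406 ± 241 (WT) and 2609 ± 261 (Cx30 KO), with a log2 ratio of 0.19 at the brightest probe and −0.10 at the other. Pmvk, phosphomevalonate kinase, had 5259 ± 526 and 4853 ± 485, with −0.04 and −0.11 at its 2 probes. Mvd, the decarboxylase, had 445 ± 44.7 and 434 ± 43.5, with a log2 ratio of 0.03. All 3 of these enzymes lay within the scanner error. Fdps, which joins the building blocks to farnesyl diphosphate, had 3559 ± 356 and 3209 ± 321, with a log2 ratio of −0.08.

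The enzymes that turn farnesyl diphosphate into squalene, lanosterol and cholesterol had a median log2 ratio of −0.24. Of these 10 genes 7 were below 0 and none (0) met the criteria. Tm7sf2 and Lss came closest to the limits, on opposite sides.

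Fdft1, squalene synthase, had 5138 ± 514 (WT) and 4613 ± 461 (Cx30 KO), with a log2 ratio of −0.08 at 1 probe and 0.12 at the other. Sqle, the squalene epoxidase and a rate-limiting step, had 2106 ± 211 (WT) and 1456 ± 146 (Cx30 KO), which gave a log2 ratio of −0.46 at a Z-score of −1.62. The Sqle signal was 27.3% lower in Cx30 KO after scaling, and its second probe was not well above background on either array.

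Lss, lanosterol synthase, was the 1 gene of the list whose brightest probe was clearly higher in Cx30 KO. This probe, at chr10:76019513-76019572 on the plus strand of mm9, gave 322 ± 32.5 (WT) and 456 ± 45.8 (Cx30 KO), so the ratio reached 1.49, with a Z-score of 1.75. It thus lay just under the limit of 1.5. The other 2 probes of Lss gave 369 ± 37.1 against 359 ± 36.1 (log2 ratio 0.03) and 104 ± 11.5 against 117 ± 12.5 (log2 ratio 0.25). The difference of 0.57 was therefore carried by 1 of 3 probes, and the mean of the 3 was 0.28. This probe ranked as the brightest through its Cx30 KO signal, since in WT the probe with 369 was brighter.

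Cyp51 removes the first methyl group from lanosterol, and Tm7sf2 reduces the double bond that this step leaves. Cyp51 had 849 ± 85.1 (WT) and 647 ± 64.9 (Cx30 KO), a log2 ratio of −0.32, with −0.10 at its other probe. Tm7sf2 had 1027 ± 103 (WT) and 658 ± 66.0 (Cx30 KO), with a log2 ratio of −0.57. The ratio, 0.674, and the Z-score, −1.91, fell just short of both limits. The second probe of Tm7sf2, at chr19:6063541-6063600 on the minus strand of mm9, gave a smaller log2 ratio of −0.13, from 209 ± 21.3 in WT to 181 ± 18.5 in Cx30 KO.

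Nsdhl and Hsd17b7 take part in removing the C-4 methyl groups. Nsdhl had 256 ± 26.1 (WT) and 218 ± 22.3 (Cx30 KO), with log2 ratios of −0.16 and −0.56 at its 2 probes, of which the second was dim (36.0 ± 6.13 (WT) and 23.2 ± 4.96 (Cx30 KO)). Hsd17b7 had 1220 ± 122 and 1228 ± 123, a log2 ratio of 0.08, with −0.01 at its other detected probe. The Hsd17b7 signals on the 2 arrays overlapped within the error.

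The last steps move the ring double bond and reduce the sterol to cholesterol. Ebp, the sterol isomerase, had 3862 ± 386 (WT) and 3738 ± 374 (Cx30 KO), with log2 ratios of 0.02 and −0.09 at its 2 probes. Sc5d, the sterol desaturase, had 1022 ± 102 and 746 ± 74.6, with −0.38 and −0.62 at its 2 probes. Dhcr7, the reductase that gives cholesterol, had 261 ± 26.5 and 194 ± 19.8, a log2 ratio of −0.36. Sc5d and Dhcr7 were lower in Cx30 KO by more than the scanner error, Ebp was not, and both probes of Sc5d were lower.

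The genes that control the pathway or carry its product had a median log2 ratio of −0.07. All 5 were below 0, within a narrow span of log2 ratios from −0.11 to −0.06, and none (0) exceeded the scanner error. Srebf1, which mainly drives fatty acid synthesis, had 3037 ± 304 (WT) and 2684 ± 268 (Cx30 KO), a log2 ratio of −0.11. Srebf2, which mainly drives sterol synthesis, had 3394 ± 339 and 3083 ± 308, with −0.07 and −0.05 at its 2 probes. Both transcription factors thus gave overlapping signals on the 2 arrays.

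Insig1, itself a target of the SREBPs, had 321 ± 32.4 (WT) and 283 ± 28.6 (Cx30 KO), a log2 ratio of −0.11. Insig2, the other SREBP anchor, had 1475 ± 148 and 1343 ± 134, with log2 ratios of −0.06, 0.08 and −0.16 at its 3 probes. Stard4, a cytosolic sterol carrier, had 459 ± 46.0 and 418 ± 42.0, a log2 ratio of −0.06. Its second probe was well above background in Cx30 KO only, at a dim signal of 20.7 ± 4.39, where the bound was a signal at least 1.099-fold higher.

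**Figure D2:**
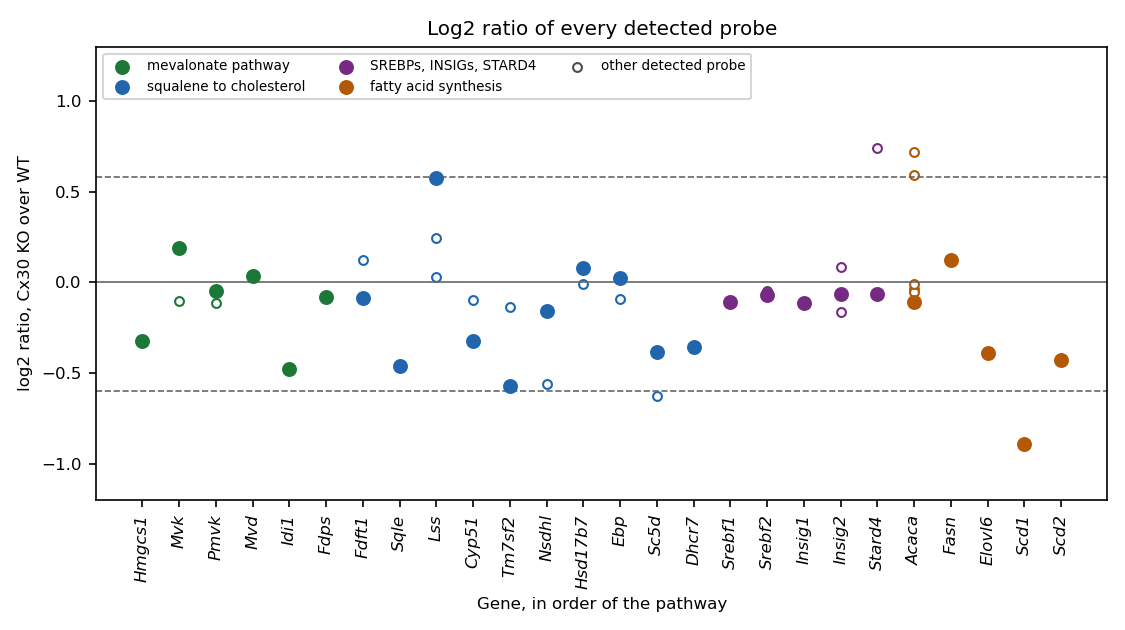
Log2 ratio of Cx30 KO over WT for every detected probe of the 26 genes, in the order of the pathway, with the brightest probe of a gene filled and its other probes open. Dashed lines mark ratios of 1.5 and 0.66, and the brightest probe of Scd1 (−0.89) is the only filled point beyond them.

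Fatty acid synthesis had the lowest median of the 4 steps, −0.39, with 4 of its 5 genes below 0 and Scd1 past the criteria. The desaturases and the elongase accounted for the larger differences, while Acaca and Fasn, which build the chain, stayed within the scanner error.

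Scd1, a stearoyl-CoA desaturase that makes monounsaturated fatty acids, had 1478 ± 148 (WT) and 759 ± 76.0 (Cx30 KO). This was a log2 ratio of −0.89, or 46.1% lower after scaling, with a Z-score of −3.24. Scd1 no longer met the criteria with Z-scores over all probes, or with ratio limits of 2 and 0.5. Of the 22043 detected genes, 718 (3.26%) had a log2 ratio as low or lower. The detected Scd1 probe lies at chr19:44469387-44469446 on the minus strand of mm9, and the gene's second probe, on the opposite strand, was not well above background on either array. The Scd1 difference therefore rests on a single probe.

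Scd2, the related desaturase abundant in brain, had 30688 ± 3069 (WT) and 21726 ± 2173 (Cx30 KO), a log2 ratio of −0.43. Its Z-score of −2.33 passed the limit of −2.0, but its ratio of 0.744 did not reach 0.66. Elovl6, an elongase that lengthens palmitate, had 1563 ± 156 (WT) and 1137 ± 114 (Cx30 KO), a log2 ratio of −0.39. Scd1, Scd2 and Elovl6 were thus all lower in Cx30 KO by more than the scanner error, by 46.1%, 25.6% and 23.6%. Scd1 and Scd2 are close paralogs, and cross-hybridisation between their transcripts was not tested.

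Acaca, acetyl-CoA carboxylase, had 2641 ± 264 (WT) and 2329 ± 233 (Cx30 KO) at its brightest probe, a log2 ratio of −0.11. Its 6 detected probes ranged from −0.11 to 0.72, and the highest value came from a dim probe with 27.9 ± 5.84 (WT) and 43.7 ± 6.31 (Cx30 KO). Fasn, fatty acid synthase, had 20680 ± 2068 (WT) and 21466 ± 2147 (Cx30 KO), a log2 ratio of 0.13.

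**Figure D3:**
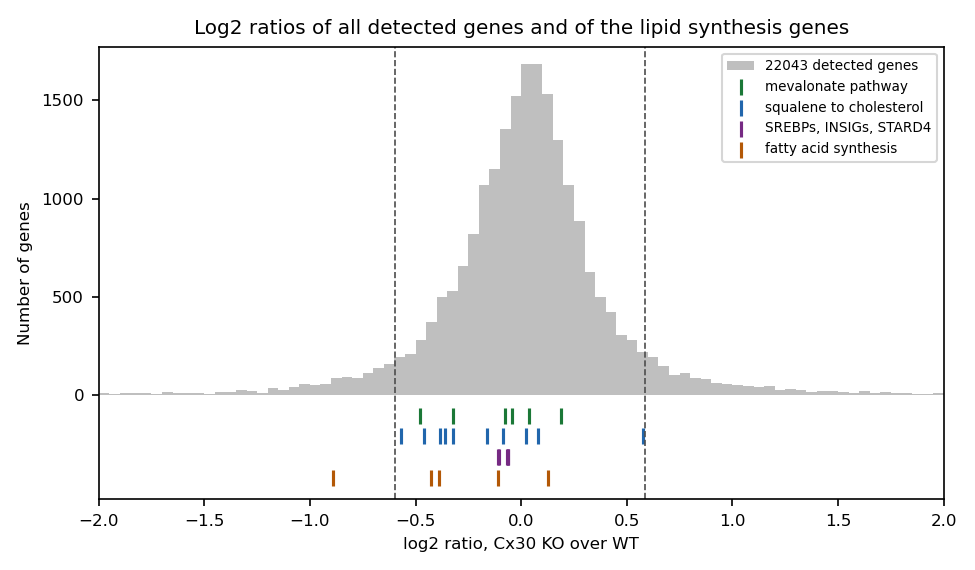
Number of genes by log2 ratio of Cx30 KO over WT for the 22043 detected genes (grey, bins of 0.05, 557 genes beyond the axis), with the 26 genes as coloured ticks below and dashed lines at ratios of 1.5 and 0.66. The ticks lie mostly left of the centre of the distribution, whose median is 0.03, and Scd1 is the single tick left of the lower line.

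Probes of 1 gene did not always share a direction. Of 13 genes with several probes well above background on both arrays, 7 had all probes on the same side of 0. The other 6 were Acaca, Ebp, Fdft1, Hsd17b7, Insig2 and Mvk, whose brightest probes all lay within the scanner error. Over all genes, the SD of the log2 ratio between probes of a gene was 0.26 (7137 genes), whereas repeated spots of 1 probe had an SD of 0.06.

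The direction of the smaller differences also depended on the processing. Over the main setting and 8 others that change a log2 ratio, the median of the 26 genes stayed between −0.16 and −0.09. The number below 0 ranged from 18 to 22. Of the 26 genes, 17 were below 0 and 4 were above 0 in every one of these settings, and Mvd, Fdft1, Ebp, Stard4 and Acaca changed sign. The log2 ratio of Scd1 ranged from −0.94 to −0.85, that of Tm7sf2 from −0.62, past the ratio limit but not the Z-score limit, to −0.35, and that of Lss from 0.02 to 0.57.

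**Figure D4:**
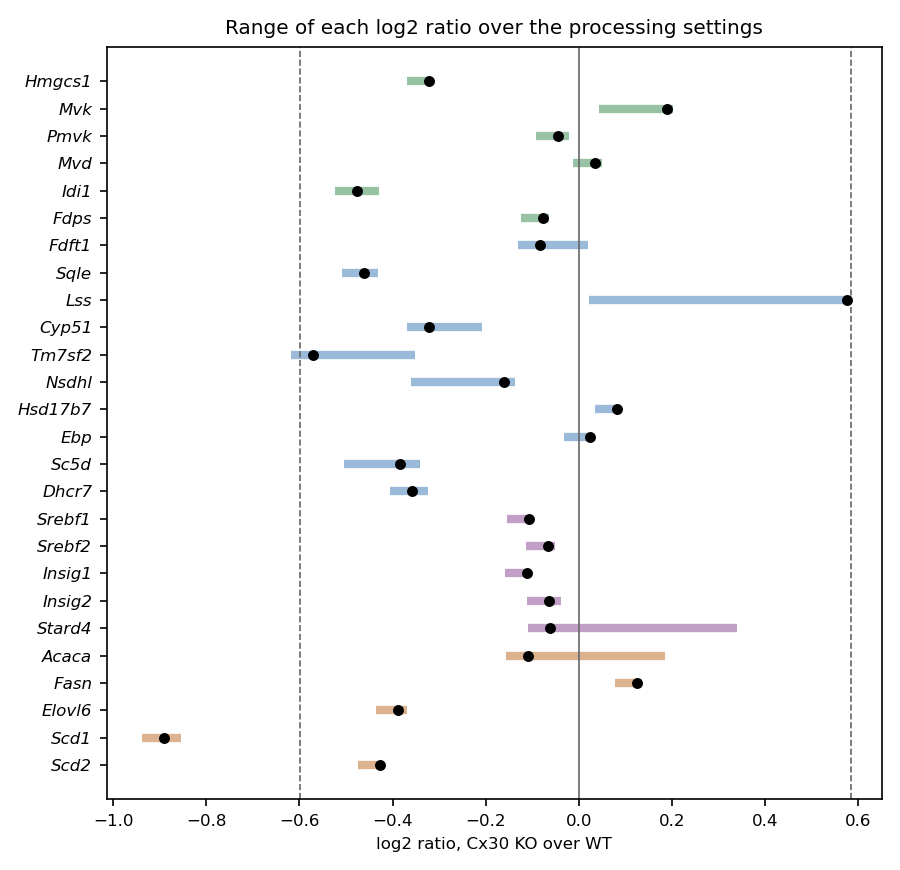
Log2 ratio of Cx30 KO over WT for each of the 26 genes, as reported (black point) and as the range over 9 processing settings (coloured bar), with dashed lines at ratios of 1.5 and 0.66. Scd1 lies left of the lower line in each setting, and the bar of Lss spans nearly the whole distance from 0 to the upper line.

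Genes that work beside these enzymes were read from 4 further lists. Of 18 other lipid synthesis genes, 13 were below 0, with a median of −0.13, and 4 met the criteria for a lower signal (22.2%, against 3.38% of all genes). None (0) met those for a higher signal, against 2.37%. Msmo1, the methyl oxidase that acts after Cyp51, had 5345 ± 535 (WT) and 3021 ± 302 (Cx30 KO), a log2 ratio of −0.75. A second Msmo1 probe gave −0.68 and met the criteria too, and the remaining, dim one gave 0.34.

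Acss2, which makes acetyl-CoA from acetate, had 1005 ± 101 (WT) and 624 ± 62.6 (Cx30 KO), a log2 ratio of −0.62, with −0.76, −0.63 and 0.19 at its other probes. Elovl7, an elongase of long saturated chains, had 913 ± 91.4 and 479 ± 48.1, a log2 ratio of −0.86. Mid1ip1, an activator of acetyl-CoA carboxylase, had 6324 ± 632 and 3943 ± 394, a log2 ratio of −0.61. The log2 ratios of Acss2 and Mid1ip1 lay just past the limit, and that of Elovl7 well past it.

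The remaining branches held fewer differences. Of 13 genes for sterol export and turnover, 8 were below 0, with a median of −0.04, and none (0) met the criteria. Soat1, which esterifies cholesterol, had a log2 ratio of −0.57, and Abca1, which exports it, had −0.50. Of 8 genes that lead from farnesyl diphosphate to other isoprenoids, 5 were below 0, with a median of −0.05 and none (0) past the criteria. Pdss1, which makes the side chain of coenzyme Q, had 0.37, and Ggps1, which makes geranylgeranyl diphosphate, had −0.14.

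All 5 genes of myelin lipid synthesis were below 0, with a median of −0.52, and 2 met the criteria for a lower signal (40.0%, against 3.38% of all genes). Ugt8a, which makes galactosylceramide, had a log2 ratio of −1.43 and −1.52 at its 2 detected probes. Fa2h, the fatty acid hydroxylase of myelin lipids, had 1895 ± 190 (WT) and 872 ± 87.3 (Cx30 KO), a log2 ratio of −1.05.

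**Figure D5:**
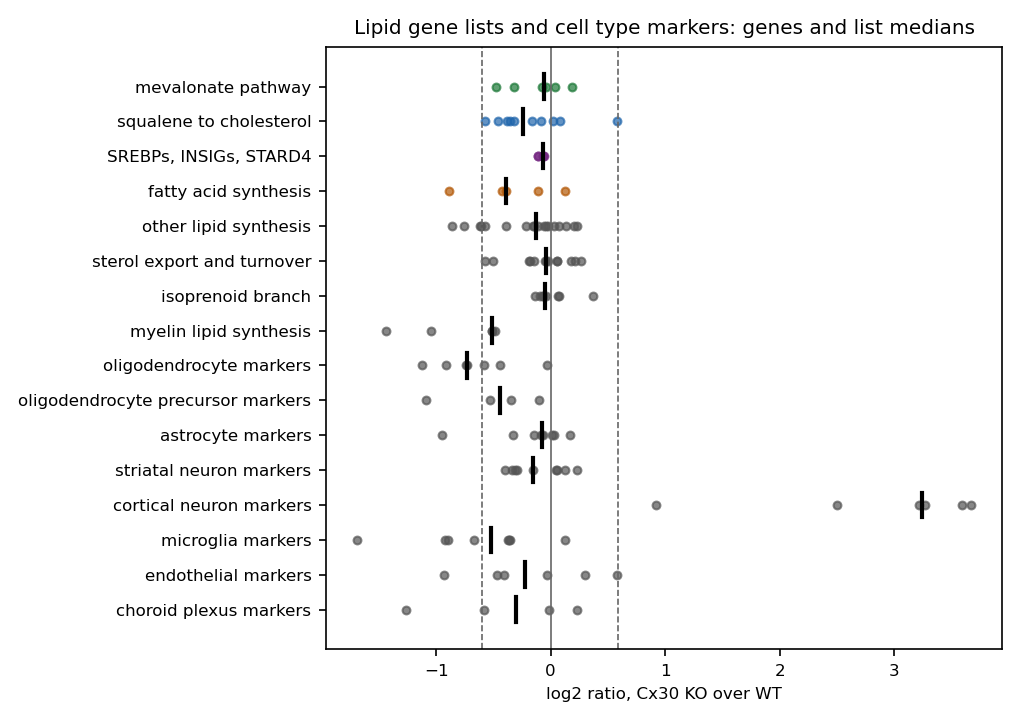
Log2 ratio of Cx30 KO over WT for each gene (points) of the 4 steps of sterol and fatty acid synthesis, the 4 neighbouring lipid lists and 8 cell type marker lists, at the gene's brightest probe and as measured also where it was not above background in WT, with the median of a list as a black bar and dashed lines at ratios of 1.5 and 0.66. The oligodendrocyte markers (median −0.73), microglial markers (−0.52) and myelin lipid genes (−0.52) lie further left than the sterol and fatty acid genes (median −0.11). So do the markers of oligodendrocyte precursors (−0.44), choroid plexus (−0.30), endothelium (−0.22) and striatal neurons (−0.16). The astrocyte markers (−0.08) and cortical neuron markers (3.24) lie further right.

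Markers of several cell types also differed between the 2 arrays. All 7 oligodendrocyte markers had lower signals in Cx30 KO, with log2 ratios from −1.12 to −0.03 and a median of −0.73. Their summed signal, before the arrays were scaled, was 92724 (WT) and 61681 (Cx30 KO). Mbp, Mog, Mag and Cldn11 met the criteria for a lower signal (57.1%, against 3.38% of all genes). All 7 markers were well above background on both arrays. The 4 markers of oligodendrocyte precursors were all below 0, with a median of −0.44, but none (0) met the criteria. The part of these cells in the lower signals of Scd1, Scd2 and the sterol enzymes was not tested.

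Of 8 astrocyte markers 5 were below 0 and 7 below the median of all genes, with a median of −0.08 and a mean of −0.17. The 26 lipid genes had a median of −0.11 and a mean of −0.17. Aqp4 (−0.95) was the 1 astrocyte marker that met the criteria for a lower signal (12.5%, against 3.38% of all genes). The summed signal of the 8 astrocyte markers, before the arrays were scaled, was 159977 (WT) and 145062 (Cx30 KO). Aldoc alone gave 117074 and 106209 of these sums. Of 8 microglial markers 7 were below 0, with a median of −0.52. The criteria for a lower signal were met by 4 of the 8, against 3.38% of all genes. Striatal neuron markers had a median of −0.16 and none (0) past the criteria. Of 6 endothelial and 4 detected choroid plexus markers, 1 each met the criteria for a lower signal, against 3.38% of all genes. The medians of these lists were −0.22 and −0.30. Cortical neuron markers went the other way, with 5 of 6 past the criteria for a higher signal in Cx30 KO (83.3%, against 2.37%). Of these, Neurod2 was 12.7-fold and Tbr1 5.66-fold higher, and the other 4 were not well above background in WT. The summed signal of the 6, before the arrays were scaled, was 175 (WT) and 1391 (Cx30 KO). The part of the tissue sampled in the values of the lipid genes was not tested.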

How the data were processed

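Gene expression was measured by the authors on Agilent arrays of 60-mer probes. The deposited values are processed signals, linear intensities from Agilent Feature Extraction after background subtraction and detrending within each array, not normalised between arrays. The file headers give version 10.7.1.1 of this software and the labels 9.5.1.1. Probe positions are mm9. The authors also deposited a table of normalised values, of which 99.99% lay within 1% of the quantile-normalised signals.

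Control spots and outlier spots (48 in WT, 52 in Cx30 KO) were left out of 62976 spots per array, replicate spots were averaged on the log2 scale, and each array was scaled to its 75th percentile. A probe was detected if 50% or more of its spots carried the mark for well above background on either array (lowest such signals 19.8 for WT, 17.4 for Cx30 KO), and a gene was read from its brightest detected probe. No probe (0) was saturated. A probe above background on 1 array only was given as at least the fold over the higher of the lowest such signal and its own signal. The number of arrays, 1 per genotype, limits the precision. Python 3.11.15, numpy 2.4.6, pandas 2.3.3, R 4.3.3 and limma 3.58.1 were used, and the calculation was tested on simulated data.

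The genes and lists were chosen with earlier results of these data known. From the list of other lipid synthesis genes and that of oligodendrocyte markers, 1 gene each is not reported here and was left out of the counts. All genes of the list were named, and of the neighbouring lipid lists those that met the criteria or, where none did, the 2 with the largest absolute log2 ratio, and of the marker lists, counts and ranges with defining genes. Alternatives were scaling by the median, quantile normalisation with or without normexp (offset 50), the table normalised by the authors, dim probes kept, detection required on both arrays, averaging over the probes of a gene, Z-scores over all or the 200 nearest probes, and ratio limits of 2 and 0.5.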

Additional observations from a re-analysis of the deposited data

How the results depend on the processing

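The count of sterol and fatty acid genes past the criteria for a lower signal was 1, Scd1, in the main setting and in 9 of 11 alternatives. It was 0 with Z-scores over all probes, where Scd1 kept its ratio but its Z-score no longer met the limit of −2.0. With ratio limits of 2 and 0.5 the count was also 0, since the ratio of Scd1 is 0.539. The count for a higher signal was 0 in all of these settings. Of 208 single-gene log2 ratios under alternatives, 4 moved by more than the spread between probes. These were Lss with normexp and quantile normalisation (0.02, where another probe became the brightest) and with the mean of its probes (0.28), Stard4 with the mean of its probes (0.34) and Acaca with the mean of its probes (0.18). The group medians kept their sign in each alternative. Scaling by the median put the median of all genes at −0.02, and no filter on dim probes put it at −0.07. Relative to that median, 21 of the 26 genes were lower in the main setting and 16 without the filter. Over all genes, 746 were lower and 523 higher in the main setting, 457 and 503 with Z-scores over all probes, 428 and 341 with ratio limits of 2 and 0.5, and 502 and 329 with detection on both arrays. Centring each ratio on its 1000 nearest probes, chosen after the data were seen, left 746 lower and 522 higher. No paired analysis was possible because each genotype has 1 array, and for the same reason no replicate could be left out. Probes near the lowest detected signals (19.8 for WT, 17.4 for Cx30 KO) have ratios with wide error.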
